A study of Homo sapiens with 32 samples.

Results

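In PANC-1, an established line of human pancreatic ductal adenocarcinoma cells, 1282 regions of the transcriptome carried an m6A peak in both control libraries and in both libraries from METTL3 knockout cells, but in neither library from CFL1 knockout cells. They lay in 2.45% of the 52413 shared control regions, merged from control peaks that overlapped a peak of the other control library. Some of these wider regions also held a CFL1 knockout peak. Taken whole, 1133 of them had peaks in both METTL3 knockout libraries and in neither CFL1 knockout library. All lists together covered 168125 regions on chromosomes 1 to 22. A region was taken where a control peak narrower than 2000 bp overlapped a peak of the other control library and peaks of both METTL3 knockout libraries by at least 1 bp, with no overlapping CFL1 knockout peak. Overlapping control peaks that met this rule were merged. The plots call the regions members and each peak, an entry of a list, a line. The rule used the presence and absence of peaks in all 6 libraries, so the pattern itself is how the regions were chosen and is not a finding.

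N6-methyladenosine (m6A) is a methyl mark on adenosine inside messenger and other RNA. METTL3 is the catalytic subunit of the nuclear complex that writes most of the mark on messenger RNA, and it works with METTL14 and adaptor proteins. YTH-domain proteins bind the mark and influence how the RNA is spliced, exported, translated and degraded, while FTO and ALKBH5 can remove it. METTL16 and PCIF1 methylate adenosine in other settings, and antibodies to m6A also bind the cap-adjacent form that PCIF1 makes. CFL1 encodes cofilin 1, a protein that severs actin filaments and carries actin into the nucleus. Peaks that go missing without METTL3 are the textbook pattern for this mark, and the regions described here were selected for the reverse.

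The libraries came from total RNA that was fragmented and bound with an anti-m6A antibody, beside input RNA that was not selected. The 3 groups, named by genotype in the labels, were control, CFL1 knockout (KO CFL1) and METTL3 knockout (KO METTL3), all in PANC-1. Each had 2 antibody samples and 2 inputs, and the other 20 of the 32 samples in the labels were not analysed here. The labels give no drug, time or clone for these groups, and do not say whether the samples of a group came from separate cultures. The treatment label of the control antibody samples is the one the inputs carry, so groups follow the titles.

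The deposited lists held 77603 and 79467 peaks in control 1 and 2, 72728 and 66295 in the CFL1 knockout libraries and 63859 and 64952 in the METTL3 knockout libraries. The knockout libraries are called 3 and 5 here, after the peak names, and these numbers were not matched to replicates. The names contain "si", while the labels give a knockout, and a list of peak positions does not show whether either protein was lost. Sequencing depth is unknown, and input signal was not used here, so loss of methylation, loss of the transcript and a peak under the calling threshold cannot be told apart for any region below. Markers of the cell line and gene names were not examined, because the positions are in hg19 and no annotation of that build was used here. Regions are therefore given by hg19 position and by the authors' values for each peak, which are fold enrichment and −log10 of the q-value. Both describe a peak within its own library, and no change between libraries is read from them.

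Absence from a list was common. Of the shared control regions, 50.5% held a control peak that no CFL1 knockout peak overlapped, and 50.1% held one that no METTL3 knockout peak overlapped. Peaks lacking from both knockouts lay in 23642 regions and touched 45.1% of the shared control regions, and peaks present in all 6 libraries lay in 19205 and touched 36.6%. The mirror class, present without CFL1 and absent without METTL3, held 1002 regions, which touched 1.91% of the shared control regions. The 1282 regions therefore stand beside a mirror class of similar size, and both classes share the control libraries. With 2 libraries against 2, a two-sided exact permutation test could not give a p below 0.333, and no test was made on regions that were chosen by presence.

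The single libraries differed in what they lacked. When a whole shared region was asked for any peak, 1133 regions were in both METTL3 knockout libraries and in neither CFL1 knockout library. Regions missing from 1 knockout library and present in the other 3 numbered 1586 for CFL1 knockout 3, 745 for CFL1 knockout 5, 678 for METTL3 knockout 3 and 860 for METTL3 knockout 5. Among regions present in both METTL3 knockout libraries, absence from CFL1 knockout 3 alone (1586) was thus more frequent than absence from both CFL1 knockout libraries (1133). Absence from 1 CFL1 and 1 METTL3 knockout library, with presence in the others, gave 234 to 430 regions for the 4 possible pairs. The mirror pattern, in both CFL1 knockout libraries and in neither METTL3 knockout library, gave 878. These counts use the same calls as the rule, so nothing is read from their order. Dropping CFL1 knockout 5 from the rule raised the count from 1282 to 3045, dropping CFL1 knockout 3 raised it to 2096, and dropping METTL3 knockout 3 or 5 raised it to 2107 or 2239.

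Most of the regions were supported by a qualifying peak from each control library. The number with 2 such control peaks was 1034, another 245 had 1 and 3 had 3. In 164 regions some other control peak over the same region did touch a CFL1 knockout peak, so absence there depended on which control peak was asked. In the other 1118 regions no control peak over the region touched one. The strength, fold and width given below are those of the strongest peak of each library over a region. In the 164 they can therefore come from a control peak that did touch a CFL1 knockout peak.

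The regions ranged from barely called to very strong. Their median −log10 q was 11.1 in control 1 (quartiles 5.04 and 24.95) and 13.9 in control 2 (6.09 and 37.1). It was 12.9 in METTL3 knockout 3 (6.49 and 27.9) and 11.4 in METTL3 knockout 5 (5.55 and 24.6). Over all peaks under 2000 bp the same medians were 7.56, 7.37, 11.1 and 9.89, so the median region was above the median peak of each library. Peaks present in all 6 libraries were stronger, with control medians of 36.6 and 43.4, and those lacking from both knockouts were weaker, with 7.56 and 7.12.

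The regions were not set apart by high fold enrichment in every library. Their median fold was 4.20 in control 1, 4.41 in control 2, 4.08 in METTL3 knockout 3 and 4.24 in METTL3 knockout 5, beside 4.12, 3.89, 4.57 and 4.70 over all peaks under 2000 bp. The median fold of the regions was therefore above that of all such peaks in the controls and below it in the METTL3 knockout libraries, while the median −log10 q was above it in all 4. Across the 1282 regions, the order by −log10 q was alike between the control libraries (Spearman's rho 0.77) and between the METTL3 knockout libraries (0.63), and was much less alike between a control and a METTL3 knockout library (0.20 to 0.25). Fold gave the same picture, at 0.65, 0.68 and 0.31 to 0.36. Within the set, regions strong in control cells were thus only loosely those strong without METTL3. The same likeness was not computed for the other classes, so it is not called a trait of the set. These are descriptions over regions that share their libraries, and 278 to 370 regions per library carried a fold and q pair identical to that of another region.

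A core of the set was strong in all 4 libraries that held it. A −log10 q of at least 5 in each of them was reached by 626 regions (48.8%), at least 10 by 316 (24.6%), at least 20 by 116 (9.05%) and at least 50 by 9 (0.702%). The mirror class reached these levels in its own 4 libraries in 420 (41.9%), 128 (12.8%), 29 (2.89%) and 3 (0.299%) regions. Strong control peaks were likewise more frequent here than in the mirror class: both control libraries reached 50 in 123 regions (9.59%) against 23 (2.30%). Regions found in all 6 libraries were strong far more often. They reached 20 in every library in 45.0% and 50 in both control libraries in 39.1%. Of the regions lacking from both knockouts, 1.47% reached 50 in both control libraries.

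The strongest by its weakest library was chr2:232325222-232325752. Its −log10 q was 180.3 in control 1, 214 in control 2, 196 in METTL3 knockout 3 and 262 in METTL3 knockout 5. Its fold was modest, at 4.66, 4.41, 3.30 and 4.33. All 4 summits, the highest points of the peaks, lay within 2 bp of each other, and the nearest CFL1 knockout peak began 647 bp away. Peaks around a region were counted where their summit lay within 50 kb of its centre and they did not overlap it. By that count the CFL1 knockout libraries had 7 and 6 peaks around this region, the controls 10 and 7 and the METTL3 knockout libraries 6 and 9.

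The next in order, chr14:69445757-69446062, had −log10 q of 93.0, 80.8, 79.6 and 97.0 and fold of 8.71, 6.48, 2.89 and 3.52, in the same order of libraries. Its summits lay within 4 bp. A CFL1 knockout peak began 49852 bp away, the closest of that genotype. With summits counted up to 50 kb from the centre, there were 0 peaks in either CFL1 knockout library, 3 and 4 in the controls and 2 and 0 in the METTL3 knockout libraries. This region stood in a stretch with few peaks of any kind.

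At chr11:61734831-61735168 the peak was called with −log10 q of 107, 105, 71.3 and 104 at a fold of only 3.45, 3.32, 1.80 and 2.14. The summits lay within 3 bp. Here the surroundings were richer without METTL3, with 11 and 8 peaks counted the same way, than in the controls, with 0 and 1, and the CFL1 knockout libraries had 6 and 2. CFL1 knockout peaks were thus called around this region, the nearest 5226 bp away. Whether they lie on the same transcript was not examined.

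Several other strong regions had closely matching summits. At chr2:174783418-174783680 the −log10 q was 96.9, 146, 96.3 and 68.0 with summits within 3 bp, and at chr1:214821837-214822099 it was 68.0, 93.3, 110.02 and 73.6 with summits within 18 bp. Both had values of like size with and without METTL3. At chr6:18264121-18264351 the METTL3 knockout values, 116 and 76.7, were above the control values, 50.4 and 48.2, and the nearest CFL1 knockout peak lay 92647 bp away.

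Other regions of the leading 12 had higher values in the control lists. At chr2:61571060-61571332 the −log10 q was 98.2 and 131 in the controls and 62.2 and 62.7 without METTL3. At chr18:9524404-9524712 it was 187 and 289 against 59.3 and 67.3, the widest gap between the groups among the 12, and the fold was 16.8 and 21.4 against 7.01 and 10.6. At chr9:100773385-100773624 it was 101.3 and 106 against 48.3 and 66.7. In these 3 regions the 2 control values were above both METTL3 knockout values, but the lists were called separately and the gap is not read as a change.

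The remaining 3 of the 12 had summits that did not coincide. At chr11:10527094-10527906 the summits were spread over 306 bp, at chr2:70524017-70524412 over 230 bp and at chr7:20449337-20450023 over 133 bp. The first had −log10 q of 138, 204, 51.5 and 62.8, and the second had 114, 223, 46.0 and 93.1. Of the 12, the chr7 region had the highest fold in its weakest library, with values of 20.4, 20.4, 12.3 and 31.4, and it was nearly alone: no control peak and at most 1 peak of each knockout library had its summit within 50 kb of the centre.

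**Figure D1:**
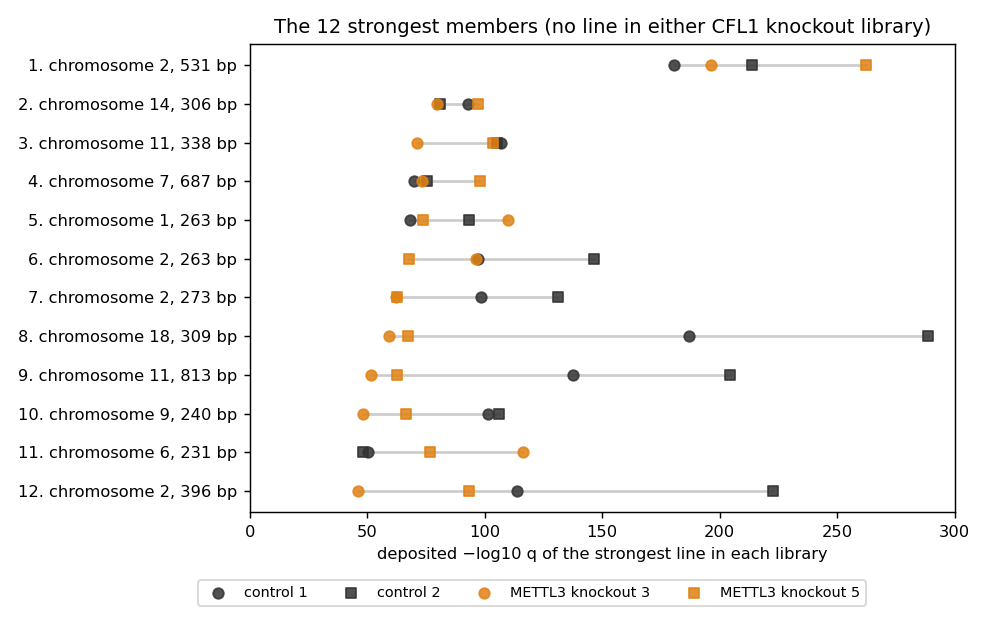
Strength of the 12 regions with the highest value in their weakest holding library, each row a region and each point the −log10 q of 1 of the 4 libraries that held it. The chromosome 2 region at the top has all 4 points at 180.3 or above, while the chromosome 18 region has control points of 187 and 289 beside METTL3 knockout points of 59.3 and 67.3.

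Ranked by the lowest fold instead, chr20:38434307-38434692 came first among the regions not yet described. Its fold was 21.6 and 31.9 in the controls and 17.2 and 15.2 without METTL3, and its −log10 q was 58.9, 110.1, 39.4 and 30.5. The summits lay within 8 bp. No other peak of any library had its summit within 50 kb of the centre, and CFL1 knockout peaks began no closer than 224975 bp.

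The second by fold, chr3:24006275-24006634, had 14.8 and 16.8 in the controls and 9.53 and 10.2 without METTL3, with summits within 5 bp. It lay among many control peaks, 11 and 13 by the same count, where each knockout library had 2 or 3. The region at chr2:145156239-145156810 had a fold of 8.95 and 10.3 in the controls and 17.2 and 11.7 without METTL3. Its −log10 q was 15.02 and 22.1 in the controls and 39.4 and 20.5 without METTL3, so the groups overlapped in −log10 q but not in fold. The other 3 chosen by fold, at chr16:86344-87053, chr19:41880566-41882435 and chr14:102973654-102974173, had summits spread over 322, 1355 and 617 bp. In the last of these another control peak touched a CFL1 knockout peak, and at chr16 a METTL3 knockout peak overlapped the control peak by 1 bp only.

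The regions farthest from CFL1 knockout peaks included weak and strong ones. The farthest region, chr14:22471689-22471987, lay 254381 bp from the nearest, and its −log10 q was 3.92, 5.91, 3.13 and 2.89. The next of those chosen for distance, chr20:21735865-21736201, lay 174454 bp away and had −log10 q of 22.8 and 19.1 in the controls and 42.9 and 74.0 without METTL3. The others, chr5:74324427-74325765 and a region on chromosome 8, lay 161618 and 144474 bp away, with lowest −log10 q of 2.89 and 3.82.

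Shared control regions were ordered by control strength, the highest −log10 q of a control peak in the region, and cut into 10 bins of equal size. That peak need not be one that met the rule. At chr14:102973654-102974173 the control peak that met it had −log10 q of 30.9, and another control peak over the region had 152. A high bin therefore does not mean that the strongest control peak was absent without CFL1. The share that held one of the 1282 was 2.16% in the weakest bin, 3.07% in the eighth, 2.92% in the ninth and 1.14% in the strongest. The share of the mirror class was 2.19% in the weakest bin and 2.94% in the sixth, and it fell away to 0.763% and 0.229% in the last 2 bins. Among the strongest 20% of control regions, 213 of 10483 (2.03%, exact binomial interval 1.77 to 2.32) held a region of the set. A region of the mirror class was held by 52 (0.496%, 0.371 to 0.650). In the strongest 10% they were 60 of 5242 (1.14%, 0.875 to 1.47) and 12 (0.229%, 0.118 to 0.3995). These 95% intervals cover counting error only and take regions as independent, which neighbouring regions are not.

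**Figure D2:**
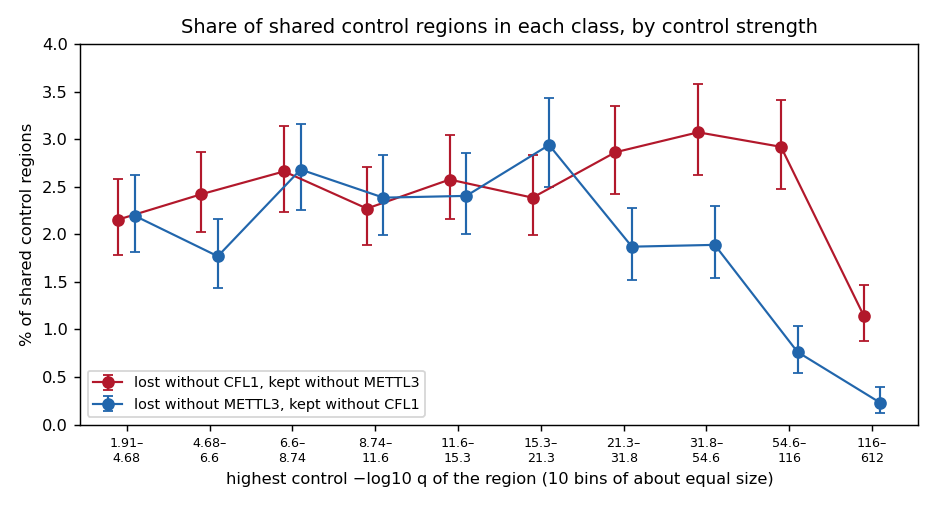
Share of the shared control regions in each of 10 bins of control strength that held one of the 1282 regions or of the mirror class, with exact 95% binomial intervals as bars. Control strength is that of the strongest control peak, which need not have met the rule. The 2 classes have like shares in the weak bins, and in the ninth bin the shares are 2.92% and 0.763%.

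The regions were narrower than those found in all 6 libraries, but their peaks were near the usual width. The median width of the strongest peak was 341.5 and 384 bp in control 1 and 2, beside 330 and 337 bp over all peaks under 2000 bp. In METTL3 knockout 3 and 5 it was 337.5 and 331 bp, beside 357 and 337 bp. The median width of the merged regions was 404 bp (range 200 to 2226). It was 451.5 bp for the mirror class, 729 bp for regions in all 6 libraries and 355 bp for those lacking from both knockouts. Width also rose with strength in the lists, so control peaks were compared at like strength. With the same strength limits applied to the strongest control peak over each region itself, in the top 20% the median peak width was 449 bp over 219 of the 1282, 545 bp over 51 of the mirror class, 843 bp over 8977 found in all 6 libraries and 464 bp over 723 lacking from both knockouts. The corresponding median folds were 6.06, 6.79, 8.12 and 7.06. In the weakest bin the widths were closer, at 322, 327.5, 357 and 263 bp. A narrower peak has less length with which to overlap another, and the part of width in the absence of an overlap was not tested.

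**Figure D3:**
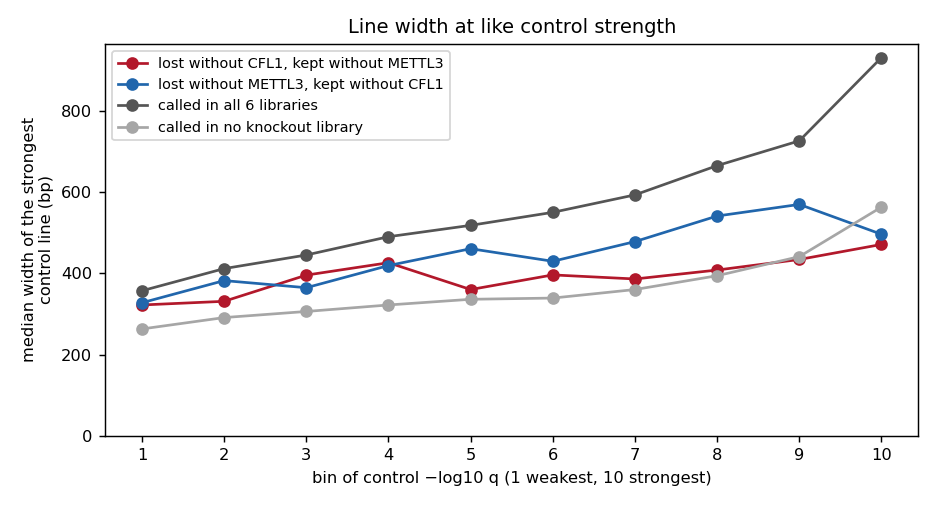
Median width in bp of the strongest control peak of a region, by bin of its strength, for the 1282 regions, the mirror class, regions in all 6 libraries and regions lacking from both knockouts. The strongest control peak need not be one that met the rule. Peaks found in all 6 libraries widen with strength, to 931 bp in the strongest of the 10 bins, where those of the 1282 have a median of 471 bp.

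Summit positions show whether the peaks of different libraries marked the same place. In the median region the summits of the 2 controls lay 20 bp apart, those of the 2 METTL3 knockout libraries 27 bp apart, and a control and a METTL3 knockout summit 86.5 to 91.5 bp apart. In regions found in all 6 libraries, which were wider, control and METTL3 knockout summits lay farther apart, at a median of 111 to 114 bp. The control summit was inside the METTL3 knockout peak in 74.8% to 76.9% of the 1282, and in 89.0% to 90.6% of regions found in all 6 libraries. Both control summits lay inside both METTL3 knockout peaks in 787 regions (61.4%). In the other regions at least 1 of the METTL3 knockout peaks did not cover at least 1 of the control summits.

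Agreement of summits was closest in the strong regions. Where the lowest −log10 q of the 4 libraries was under 5, the 4 summits were spread over a median of 212 bp in 656 regions, and 10.8% had all of them within 50 bp. The spread was 129 bp from 5 to 10, 92 bp from 10 to 20, and 43.5 bp at 20 or more, where 65 of 116 regions (56.0%) had all 4 within 50 bp. Regions found in all 6 libraries at 20 or more had a spread of 140 bp and 23.9% within 50 bp, with a median peak width of 850.5 bp against 312.75 bp. Over all 1282 regions, 269 (21.0%, interval 18.8 to 23.3) had the 4 summits within 50 bp.

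The nearest CFL1 knockout peak was at a median of 1518.5 bp (quartiles 309 and 6402). It lay within 100 bp of 127 regions (9.91%), within 1 kb of 549 (42.8%, interval 40.1 to 45.6), within 10 kb of 1042 (81.3%) and within 100 kb of 1274 (99.4%). Mirror regions were nearer to METTL3 knockout peaks, at a median of 886.5 bp, with 53.0% (49.8 to 56.1) within 1 kb. On average 9.26 and 9.65 METTL3 knockout peaks lay within 50 kb of mirror regions, against 7.67 and 7.05 CFL1 knockout peaks for the 1282. The part of this density in the distances was not tested. The distances use the same calls as the rule and the intervals cover counting error only, so nothing is read from the difference. Regions lacking from both knockouts were farther from CFL1 knockout peaks, at a median of 5569.5 bp, with 17.8% within 1 kb. Of the 116 regions at −log10 q of 20 or more in all 4 libraries, 38 (32.8%) had a CFL1 knockout peak within 1 kb, and the median distance over the 116 was 3051.5 bp. In 107 of these 116 no control peak over the region touched a CFL1 knockout peak.

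**Figure D4:**
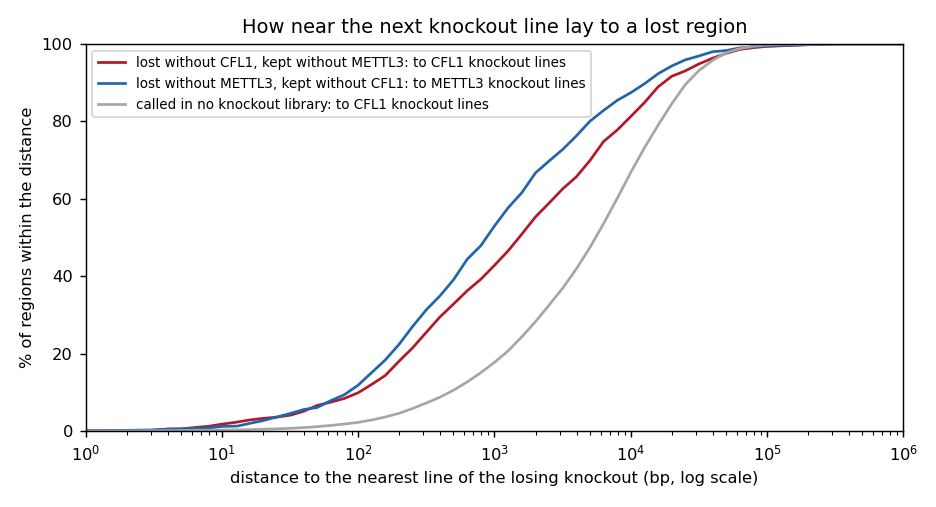
Cumulative percent of regions against the distance in bp, on a log axis, to the nearest peak of the knockout in which the region was not called, for the 1282 regions, the mirror class and regions lacking from both knockouts. At 1 kb the curves stand at 42.8% for the 1282, 53.0% for the mirror class and 17.8% for regions lacking from both knockouts against CFL1 knockout peaks.

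At the edges of the rule, small shifts of a peak decided membership. Of the 1282 regions, 23 had a CFL1 knockout peak 10 bp away or less, and just outside the rule 34 control peaks overlapped one by 10 bp or less. The closest inside were chr19:480497-481398, chr14:19692753-19693002 and chr1:51085353-51086163, with CFL1 knockout peaks 1, 2 and 4 bp away. The nearest peaks outside overlapped one by 1 bp. The smallest overlaps with METTL3 knockout peaks not yet described were 1 bp at chr3:157889547-157889752, 1 bp at chr6:155568438-155568863 and 2 bp at chr1:70733083-70733376. The width limit decided nothing, since 0 control peaks of 2000 bp or more met the other conditions. The widest qualifying control peaks not yet described measured 1645, 1639 and 1493 bp, at chr5:175734995-175737220, chr1:27209281-27210921 and chr1:234369778-234371285.

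CFL1 knockout peaks were called around nearly all of the regions. With summits counted up to 50 kb from the centre of a region, leaving out peaks over the region itself, there were on average 9.13 and 9.28 control peaks, 7.67 and 7.05 CFL1 knockout peaks and 6.93 and 7.11 METTL3 knockout peaks. Per 100000 peaks of each library these were 11.8 and 11.7, 10.5 and 10.6, and 10.8 and 10.95. Both knockouts were thus below the controls around these regions, and the CFL1 knockout libraries were slightly below the METTL3 knockout libraries. Around regions found in all 6 libraries the order differed, with 13.8 and 13.5 in the CFL1 knockout libraries, 12.5 and 12.7 in the METTL3 knockout libraries and 13.1 and 12.8 in the controls. Around mirror regions the CFL1 knockout libraries had 18.7 and 17.3 per 100000 peaks, beside 14.7 and 14.3 in the controls and 14.5 and 14.9 in the METTL3 knockout libraries. Regions lacking from both knockouts had the wider gap, with 19.4 and 17.8 in the controls. There the CFL1 knockout libraries had 9.54 and 9.25 and the METTL3 knockout libraries 9.22 and 9.23. By the same count 35 of the 1282 regions (2.73%) had no CFL1 knockout peak around them, and 24 (1.87%) had no METTL3 knockout peak. METTL3 but no CFL1 knockout peaks lay around 25 of the 1282, and CFL1 but no METTL3 knockout peaks around 14. Of the 1002 mirror regions, 12 had CFL1 but no METTL3 knockout peaks around them, and 5 had METTL3 but no CFL1 knockout peaks.

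Neighbouring control regions were called in the knockouts more often than the average neighbour and less often than neighbours of regions found in all 6 libraries. Another shared control region lay within 10 kb of 919 of the 1282 (71.7%), fewer than the 80.4% of all shared control regions. The share was 78.2% for the mirror class, 78.6% for regions found in all 6 libraries and 84.3% for those lacking from both knockouts. Leaving out neighbours that belonged to the set or to the mirror class, 2420 pairs over 900 regions remained. Of these neighbours 47.4% had a peak in both CFL1 knockout libraries and 51.2% in both METTL3 knockout libraries, beside 33.96% and 34.9% for neighbours of all shared control regions and 58.5% and 59.7% for neighbours of regions found in all 6 libraries. A peak in all 4 knockout libraries was held by 44.9% of the neighbours, and 36.9% had a peak in none of them. Neighbours of mirror regions stood at 57.5% and 54.9%, in the opposite order.

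Most of the regions lay apart from each other. Another of the 1282 lay within 10 kb of 82 (6.40%), beside 4.61% of all shared control regions, and at that distance 1200 stood alone, with 35 pairs and 4 groups of 3. At 50 kb there were 2 groups of 4. The group at chr1:214795265-214828633 held the strong chromosome 1 region described above, and across it 11 and 9 control peaks, 6 and 4 CFL1 knockout peaks and 8 and 9 METTL3 knockout peaks were called. Across the group at chr17:27001143-27035994 the counts were 7 and 7, 4 and 3, and 6 and 6. Both sets of counts include the peaks over the chosen regions themselves. There the rule asked for control and METTL3 knockout peaks and for no CFL1 knockout peak, so the lower CFL1 knockout counts are not a finding.

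The chromosomes were not equally represented. Chromosome 6 held 6.86% of the 1282 (interval 5.54 to 8.39), 2.99% of the mirror class (2.03 to 4.25) and 5.05% of shared control regions. Chromosome 5 held 6.86%, 4.09% and 5.09%, and chromosome 4 held 4.60%, 2.59% and 3.12%. The gene-dense chromosome 19 went the other way, with 4.99% (3.87 to 6.33), 10.2% (8.38 to 12.2) and 6.79%, as did chromosome 16 with 3.82%, 6.89% and 4.97% and chromosome 17 with 4.29%, 7.09% and 6.48%. Relative to the shared control regions of each chromosome, the set ranged from 1.62 per 100 on chromosome 17 to 3.61 per 100 on chromosome 4.

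The libraries themselves differed across the same chromosomes. Chromosome 19 held 6.77% and 6.37% of peaks in the controls, 7.42% and 6.90% in the CFL1 knockout libraries and 6.16% and 6.12% in the METTL3 knockout libraries. Chromosome 6 held 4.94% and 5.11%, 4.66% and 4.78%, and 5.40% and 5.25%. On both chromosomes the library shares moved in the direction of the class shares, and their part in the difference between the classes was not tested.

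**Figure D5:**
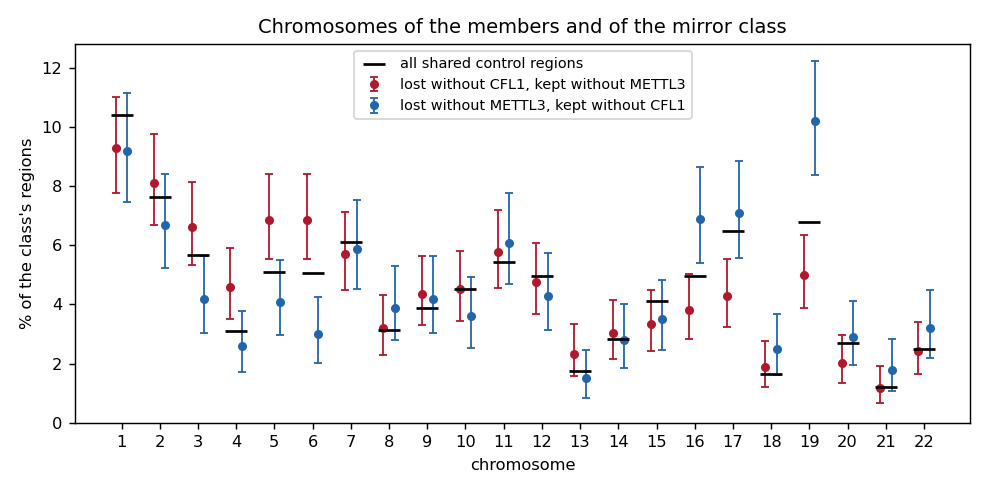
Percent of the 1282 regions and of the mirror class on each of chromosomes 1 to 22, with exact 95% binomial intervals as bars, beside the percent of shared control regions. On chromosome 6 the set has 6.86% and the mirror class 2.99%, and on chromosome 19 they have 4.99% and 10.2%.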

How the data were processed

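m6A was measured in PANC-1 by antibody selection of fragmented total RNA. Per the submitters' processing notes, STAR, MACS2, bedtools and hg19 were used; the sources used here give no versions or settings, nor whether input was the background. Each deposited list holds the peaks of 2 libraries of a group, told apart by the authors' peak names. The authors' fold enrichment (a ratio) and −log10 q-value were deposited per peak, with the summit position. They describe and rank peaks within a list and carry no replicate error.

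Peaks on chromosomes 1 to 22 were intersected by position with Python 3.11.15, numpy 2.4.6 and pandas 2.3.3, and intervals are exact Clopper-Pearson from scipy 1.17.1. Where a region held several peaks of a library, the strongest was used, whether or not it met the rule. The script was tested on simulated data. Named regions were the 12 with the highest −log10 q in their weakest holding library, the 6 with the highest lowest fold, the 4 farthest from CFL1 knockout peaks, and 3 just inside each threshold, passing over regions already taken. The regions of the groups of 4 were chosen after their values were seen. The set and all lists were chosen with earlier results of these data known. Gene lists, sequence motifs, exon positions and cell line markers were not used here, for want of an hg19 reference. Alternatives varied the overlap, the distance, the strength and width limits, the merging and the libraries.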

Additional observations from a re-analysis of the deposited data

How the results depend on the processing

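The main values were 1282 regions in the set, 2.45% of shared control regions, 1002 mirror regions and 42.8% of the set within 1 kb of a CFL1 knockout peak. In that order, requiring an overlap of 50% of the shorter peak gave 1407, 2.70%, 1071 and 52.3%, and asking for the summit inside the other peak gave 1627, 3.11%, 1123 and 63.4%. Requiring no peak of the lost knockout within 100 bp gave 1173, 2.24%, 906 and 37.5%, and within 1 kb gave 745, 1.42%, 488 and, by construction, 0%. Holding control and kept peaks to a −log10 q of 5 or more gave 626, 1.75%, 420 and 38.7%, and 10 or more gave 316, 1.28%, 128 and 33.2%. A fold of at least 4 gave 277, 1.11%, 198 and 50.2%, and leaving out every peak with −log10 q under 5 gave 956, 2.68%, 746 and 36.5%. Leaving out 1 library gave 1495 to 3045 regions, 2.01% to 5.81%, 1232 to 1968 mirror regions and 38.1% to 41.9%; a rule with fewer libraries asks for fewer conditions. The set stayed larger than the mirror class in all of these, at 1.07 to 2.47 times. Other width limits, merging within 100 bp and adding chromosome X, an alternative chosen after seeing the data, moved these values less than 1.5 times or within counting error. For the other changes the cause was not tested. Alternatives on sequence motifs and exons were not run. No paired analysis was possible because the peak names do not carry the labels' replicate numbers and no test was made. Depth is unknown, so absence of a peak is not absence of the mark.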

Other observations

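The X chromosome stood outside the rule. Applied there unchanged, it gave 46 regions present in both control and both METTL3 knockout libraries and absent from both CFL1 knockout libraries, and 21 of the mirror class. Peaks found in all 6 libraries lay in 606 regions of that chromosome, and those lacking from both knockouts in 636.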
